A study of Mus musculus with 9 samples.

Results

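Stretches of the mouse genome that hold genes of RNA splicing and of the ribosome were examined for how much of their DNA stayed with the insoluble nuclear material after high-salt extraction. The 4 stretches were a 110 kb window with Srsf7 and Gemin6 (mm9 chr17:80590000-80700000), a 100 kb window with Matr3 and Snhg4 (chr18:35700000-35800000), a 90 kb window with Snrnp70 (chr7:52590000-52680000) and a 40 kb window with Rps20 (chr4:3740000-3780000). The windows were chosen because their DNA was higher in the insoluble fraction than in the released fraction of these same libraries, so that difference is given below as a description, with no test. A StyI fragment, the piece of DNA between neighbouring sites of the restriction enzyme StyI, belonged to a window if its midpoint lay there. By this rule 376 of the 3053721 fragments in the files were members: 117 in the Srsf7 and Gemin6 window, 81 in the Matr3 and Snhg4 window, 137 in the Snrnp70 window and 41 in the Rps20 window. The 200 kb on both sides of each window, with 2049 fragments in all, served as flanks.

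The cells behind all 9 libraries were E14Tg2a, an embryonic stem cell line from a 129P2 mouse, kept undifferentiated on gelatin with LIF. Nuclei were extracted at high salt and their DNA was cut with StyI, which parts the DNA into a retained fraction (high-salt recovered sequences, HRS) and a released fraction (Loop). Each fraction had 3 libraries, and 3 more were made of input DNA that was not fractionated, with the titles D0, D12 and D21, which the labels do not explain. No treatment or genotype distinguished the groups, and nothing in the labels says whether replicates came from separate cultures, so the spread between libraries may be technical.

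The tables summed to between 39.1 M and 62.9 M counts a library. HRS replicate 3 was the shallowest and stood apart: over 10 kb bins its chi-square per bin against HRS replicates 1 and 2 was 6.35 and 7.02, while those 2 differed from each other by 2.71. It also gave the highest normalised count of the HRS libraries in all 4 windows, so ratios are given with and without it. The part of its depth in those values was not tested. Loop replicate 3 stood apart as well, at 4.94 and 5.68 against Loop replicates 1 and 2, which differed from each other by 2.62. Summed over fragments over 1000 bp of the 4 windows it gave 13.3 CPM, and Loop replicates 1 and 2 gave 21.6 and 23.1 CPM. The same was seen over all such fragments of the genome, at 77087 CPM beside 134818 and 137332 CPM. Levels are given as CPM, counts scaled to a common library total by TMM, a method that sets libraries level over the bulk of the genome.

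The genes in these windows serve the making of other RNAs and of protein. Srsf7 is a serine and arginine rich protein that binds exons and guides the choice of splice sites. Gemin6 is a subunit of the SMN complex, which loads Sm proteins onto spliceosomal snRNAs. Snrnp70 is the protein of the U1 snRNP that contacts U1 RNA, and so takes part in recognising the start of introns. Matr3 encodes matrin 3, an RNA-binding protein named for its place in the nuclear matrix, the insoluble material that high-salt extraction was first used to define. Snhg4 is a long noncoding RNA gene that hosts a small nucleolar RNA, and Rps20 encodes a protein of the small ribosomal subunit. Such genes are widely and strongly transcribed in dividing cells.

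In the gene order of RefSeq's GRCm38.p6 annotation, used here for names only, Srsf7 follows Galm and is followed by Gemin6, inside whose span Ttc39d lies, and then by Dhx57. Snhg4, with Snora74a and Mir1949 inside it, lies between Sil1 and Matr3, and Paip2 follows. Snrnp70 lies between Lin7b and Kcna7. Rps20 lies between Lyn and Mos. An annotation of mm9 was not used here, so no value below is assigned to an exon, an intron or a promoter.

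Promoters of 3 of the 6 genes (Srsf7, Gemin6 and Snrnp70) had an entry in RefSeq's table for GRCm38.p6, and are shown because StyI sites set where a fragment begins and ends. Each is the 250 bases before the gene's start, 5′ to 3′ on the gene's strand, with the StyI site in capitals. In GRCm38.p6 they lie at chr17:80207306-80207555 (minus strand), chr17:80224201-80224450 (plus strand) and chr7:45395743-45395992 (minus strand).
Srsf7: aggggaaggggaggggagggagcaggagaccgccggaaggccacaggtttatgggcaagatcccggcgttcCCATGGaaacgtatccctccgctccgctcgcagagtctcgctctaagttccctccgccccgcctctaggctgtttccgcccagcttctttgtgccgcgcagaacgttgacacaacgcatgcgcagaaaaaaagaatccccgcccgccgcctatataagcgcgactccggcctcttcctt
Gemin6: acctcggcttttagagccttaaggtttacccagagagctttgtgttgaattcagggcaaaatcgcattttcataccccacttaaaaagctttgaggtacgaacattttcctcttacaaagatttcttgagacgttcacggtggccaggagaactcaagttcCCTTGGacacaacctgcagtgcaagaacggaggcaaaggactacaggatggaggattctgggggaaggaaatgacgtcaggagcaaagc
Snrnp70: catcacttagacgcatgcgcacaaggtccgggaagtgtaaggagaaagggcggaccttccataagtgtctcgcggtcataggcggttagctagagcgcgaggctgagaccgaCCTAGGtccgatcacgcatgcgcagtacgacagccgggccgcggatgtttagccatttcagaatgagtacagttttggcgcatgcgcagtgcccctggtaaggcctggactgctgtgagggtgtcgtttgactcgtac

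Each of the 3 holds 1 StyI site, CCATGG for Srsf7, CCTTGG for Gemin6 and CCTAGG for Snrnp70. Any StyI site, one of these or CCAAGG, occurs in 29.2% of the 32851 promoters of the same length in the table. The Srsf7 and Snrnp70 promoters hold 23 and 21 CpG dinucleotides, and that of Gemin6 holds 7, beside a median of 6. The letters GCATGCGC, which form part of the site of the transcription factor NRF1, were searched on both strands (reverse complement GCGCATGC, overlapping hits counted once) after the sequences had been seen. They occur at 3 places before Snrnp70, at 1 before Srsf7 and not before Gemin6. They occur at 1 or more places in 2.26% of all these promoters, and at 2 or more in 0.167%. A match describes the letters only.

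Per fragment, the windows were near their surroundings in unfractionated DNA. Input CPM per fragment in the Srsf7 and Gemin6 window was 1.01 ± 0.040 times that of its flanks (SD, n = 3). The ratio was 1.04 ± 0.055 for Matr3 and Snhg4, 0.977 ± 0.0056 for Snrnp70 and 0.842 ± 0.059 for Rps20. The first 2 windows thus lay within the spread between inputs of an even ratio, while all 3 inputs had fewer counts per fragment in the Rps20 window (0.789 to 0.905 times its flanks) and, by a small margin, in the Snrnp70 window (0.973 to 0.983). Fragments were sparser in the Matr3 and Snhg4 window, at 8.10 per 10 kb against 13.4 in its flanks, and longer, with a median of 803 bp against 496 bp. Per kb, input was lower there, at 0.628 ± 0.033 times its flanks, and the Rps20 window had 0.780 ± 0.054 times. In the other windows there were 10.6, 15.2 and 10.2 fragments per 10 kb, close to the 11.0, 15.7 and 11.1 of their flanks. Of the 376 members, 28 (7.45%) had no count in any of the 9 libraries, beside 16.4% of all fragments.

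All 4 windows were richer in the HRS libraries than in the Loop libraries, the property they were chosen for. In the Rps20 window the HRS libraries gave 30.1, 28.5 and 47.4 CPM, the Loop libraries 7.87, 8.76 and 7.32 CPM, and the D0, D12 and D21 inputs 11.0, 9.96 and 9.11 CPM. HRS was thus 4.43-fold above Loop (log2 ratio 2.15 ± 0.52, SD over the 3 replicate-numbered pairs). In the Matr3 and Snhg4 window HRS gave 87.4, 82.3 and 133 CPM, Loop 25.7, 25.3 and 23.8 CPM, and input 39.6, 34.1 and 34.2 CPM. HRS was 4.05-fold above Loop there (log2 2.02 ± 0.44). In both windows every HRS library lay above every input, and every input above every Loop library.

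The other 2 windows had smaller ratios. The Srsf7 and Gemin6 window gave 77.8, 69.9 and 102 CPM in HRS, 38.5, 40.0 and 37.5 CPM in Loop, and 41.8, 40.0 and 40.0 CPM in input. The HRS mean was 2.15-fold the Loop mean (log2 1.11 ± 0.33). The Snrnp70 window gave 131, 123 and 204 CPM in HRS, 70.8, 76.5 and 71.7 CPM in Loop, and 73.4, 70.1 and 66.3 CPM in input. The HRS mean there was 2.09-fold the Loop mean (log2 1.07 ± 0.43). In these windows HRS alone stood apart, and Loop and input overlapped or nearly met.

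**Figure D1:**
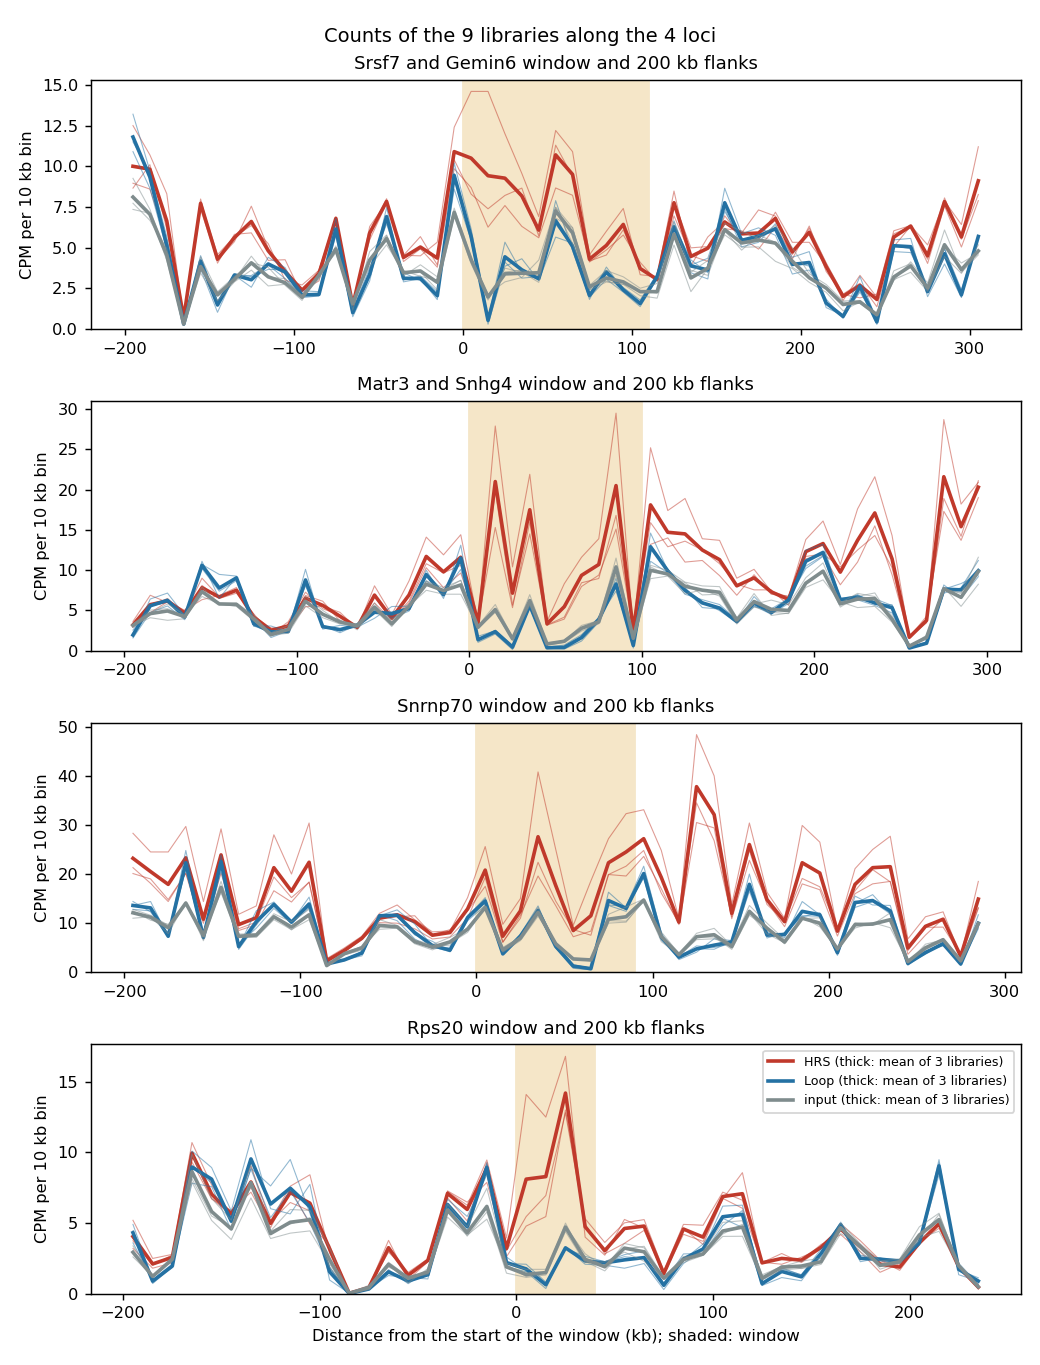
CPM in 10 kb bins along each window (shaded) and its 200 kb flanks, by distance in kb from the start of the window, for HRS (red), Loop (blue) and input (grey), with thin lines for the 9 libraries and thick lines for group means. HRS lies above Loop and input through each shaded window, and the Snrnp70 panel has its highest HRS bins to the right of the window.

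Without HRS replicate 3 the log2 ratios of HRS over Loop were 0.93 for Srsf7 and Gemin6, 1.77 for Matr3 and Snhg4, 0.80 for Snrnp70 and 1.88 for Rps20. Against input, the HRS mean was 2.05-fold higher for Srsf7 and Gemin6, 2.81-fold for Matr3 and Snhg4, 2.19-fold for Snrnp70 and 3.52-fold for Rps20. The order of the windows was the same over input as over Loop at its upper end, with Rps20 highest and Matr3 and Snhg4 next. The Srsf7 and Snrnp70 ratios were close (log2 1.04 ± 0.28 and 1.13 ± 0.40). Here ± is the root of the summed squares of the SDs of log2 CPM in HRS and in input. Both windows were counted in the same libraries, so it does not measure the error of a difference between windows. Without HRS replicate 3 the log2 ratios over input were 0.86 for Srsf7 and Gemin6, 1.24 for Matr3 and Snhg4, 0.86 for Snrnp70 and 1.55 for Rps20.

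The share of counts that fell in a window, out of the window and its flanks, does not depend on how libraries are scaled. In the Rps20 window it was 16.2%, 15.1% and 21.5% in the HRS libraries, 5.26%, 5.68% and 4.70% in the Loop libraries and 7.16%, 7.73% and 6.80% in the inputs, where the window holds 8.47% of the fragments. In HRS, DNA around Rps20 stood out from its own neighbourhood as well as from the other fractions. Because the windows were chosen from these same HRS and Loop libraries, the shares are a description and no independent support. They were not corrected for fragment length. In the Matr3 and Snhg4 window the shares were 20.4%, 19.9% and 24.0% in HRS, 9.67%, 9.02% and 8.60% in Loop and 13.9%, 12.8% and 13.9% in input. In the Srsf7 and Gemin6 window they were 26.4%, 25.3% and 30.7% in HRS, 18.9%, 19.3% and 18.5% in Loop and between 20.5% and 21.8% in input. The Snrnp70 window differed least: its shares were 19.3%, 18.2% and 21.2% in HRS, 16.5%, 16.8% and 16.0% in Loop and 17.6%, 17.5% and 17.5% in input. In each window the lowest HRS share lay above the highest input share, and the highest Loop share below the lowest input share. For Snrnp70 the 95% Wilson interval of HRS replicate 2 (17.8% to 18.6%) overlapped that of every input (for D0, 17.2% to 18.1%). The interval of Loop replicate 2 overlapped those of D12 and D21 for Snrnp70, and that of D0 for Srsf7 and Gemin6. Overlap of intervals does not by itself place a gap within counting error, and the gaps of those pairs of libraries were not tested. Such intervals cover counting error only, since the tags carry no molecular identifiers.

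**Figure D2:**
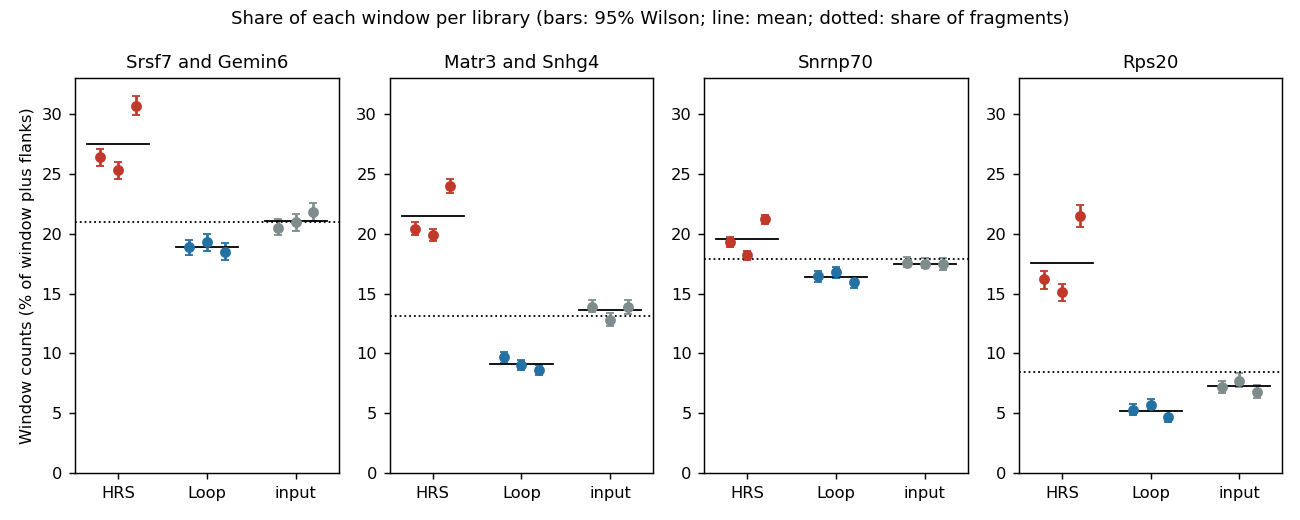
Share of the counts of window plus flanks that fell in the window (%), 1 point per library with its 95% Wilson interval, with the group mean as a line and the share of fragments dotted. HRS means of 27.5%, 21.5%, 19.6% and 17.6% stand above Loop means of 18.9%, 9.10%, 16.4% and 5.22% for the Srsf7 and Gemin6, Matr3 and Snhg4, Snrnp70 and Rps20 windows.

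The flanks, whose fragments are not members, were compared with input by edgeR's quasi-likelihood test, adjusted over all bins and window sums. Around Rps20 neither flank passed, with log2 ratios of HRS over input of 0.31 ± 0.25 (SE) on the left and 0.31 ± 0.23 on the right and adjusted p of 0.402 and 0.339. Around Srsf7 and Gemin6 neither passed either, at 0.50 ± 0.26 and 0.48 ± 0.26 with adjusted p of 0.169 and 0.188. The left flank of Matr3 and Snhg4 gave 0.26 ± 0.27 with an adjusted p of 0.532. Its right flank gave 0.87 ± 0.34 with an adjusted p of 0.0661, and passed when counts were corrected for fragment length (0.86 ± 0.25, adjusted p of 0.0156). The right flank of Snrnp70 rose over input by 1.12 ± 0.38 with an adjusted p of 0.0362, and its left flank gave 0.64 ± 0.36 with an adjusted p of 0.213. The right flank of Snrnp70 was thus as high over input as the window itself, whose ratio in the same fit was 1.10 ± 0.29, so the retained stretch there ran past the edge of the window.

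At 10 kb the HRS libraries were above Loop in all 34 bins of the windows by the call used genome-wide, edgeR's quasi-likelihood test with a Benjamini-Hochberg adjusted p of 0.05. Of all tested bins 17.8% were called higher in HRS than in Loop. With counts corrected for fragment length all 34 were called again, beside 15.0% of all bins. Nothing is read from this count, because the windows were chosen by that contrast. Against input 33 of the 34 bins were called higher, beside 15.2% of all bins. The 1 bin that was not called is the first of the Matr3 and Snhg4 window (35700001 to 35710000), at 3.32, 3.56 and 3.57 CPM in HRS and 3.07, 2.77 and 2.85 CPM in input. In the flanks 38 of 80 bins on the left, 1 of which was not tested, and 59 of 80 on the right were called higher in HRS than in input. HRS libraries took part in the choice of windows, so the calls against input are no independent support for the calls against Loop. Without HRS replicate 3 the calls were 32 of 34 against Loop and 33 of 34 against input.

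The bins were uneven within each window, and in each the bin with the highest ratio of HRS over Loop was one with few Loop counts. In the Srsf7 and Gemin6 window that bin was 80600001 to 80610000, where HRS gave 7.39, 6.26 and 14.6 CPM, Loop 0.682, 0.626 and 0.301 CPM and input 1.99, 1.78 and 2.15 CPM. HRS was 17.6-fold above Loop and 4.77-fold above input there. The bin before it was 2.47-fold above input, and after it the ratio went down step by step to 1.48-fold in bin 80640001 to 80650000.

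In the Matr3 and Snhg4 window the strongest bin was 35720001 to 35730000, with 5.66, 5.34 and 10.4 CPM in HRS, 0.508, 0.659 and 0.142 CPM in Loop and 1.63, 1.47 and 1.33 CPM in input. HRS was 16.4-fold above Loop and 4.85-fold above input. Another bin of the same window, 35750001 to 35760000, came close at 13.4-fold and 4.67-fold, so this window had more than 1 peak of retention.

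In the Snrnp70 window the strongest bin was 52650001 to 52660000, with 7.53, 8.37 and 18.6 CPM in HRS, 0.857, 0.807 and 0.496 CPM in Loop and 2.30, 2.70 and 2.50 CPM in input. HRS was 16.0-fold above Loop and 4.60-fold above input. The bins next to it on the left and on the right were 3.14-fold and 2.08-fold above input.

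In the Rps20 window the strongest bin was 3750001 to 3760000, with 6.95, 5.46 and 12.5 CPM in HRS, 0.730, 0.824 and 0.372 CPM in Loop and 1.73, 1.45 and 1.33 CPM in input. HRS was 12.9-fold above Loop and 5.51-fold above input. The bin before it, 3740001 to 3750000, was 5.92-fold above input, the highest such ratio of the 34 bins. By edgeR's log2 ratio of HRS over input these 2 bins ranked 67 and 54 of 246935. The strongest bins of the other windows ranked 113 (Srsf7 and Gemin6), 105 (Matr3 and Snhg4) and 132 (Snrnp70). Because HRS libraries took part in the choice of windows, high ranks are no independent support. HRS replicate 3 was the highest library in each of the 4 strongest bins, and HRS replicates 1 and 2 alone also lay above every input there.

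By ratios of HRS over Loop not corrected for fragment length, the edges of the windows were sharp in some places and not in others. At the left edge of the Rps20 window the ratio of HRS over Loop went from 1.45-fold in the last bin outside to 4.62-fold in the first bin inside, and at its right edge from 2.03-fold inside to 1.40-fold outside. At the right edge of the Srsf7 and Gemin6 window it went from 2.37-fold inside to 0.945-fold outside, and at the left edge from 1.15-fold outside to 1.85-fold inside. The Matr3 and Snhg4 window went from 1.00-fold outside to 2.57-fold inside on the left and from 3.82-fold inside to 1.40-fold outside on the right. Its first bin on the left was not called above input. Among the bins of that window the smallest log2 ratio of HRS over Loop was 1.31, and 0.72 after length correction. The Snrnp70 window changed least, from 1.16-fold to 1.43-fold on the left and from 1.89-fold to 1.35-fold on the right.

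Beyond the Snrnp70 window the ratio rose again. The flank bin 52710001 to 52720000 had 34.5, 30.5 and 48.4 CPM in HRS, 5.36, 4.81 and 4.08 CPM in Loop and 6.64, 7.93 and 7.11 CPM in input. It was 5.23-fold above input and ranked 74, higher than any bin inside the window. In GRCm38.p6 the genes after Snrnp70 are Kcna7, Ntf5, Lhb, Ruvbl2, Gys1 and Ftl1, and which of them this mm9 bin holds was not determined here. The highest flank bin of Matr3 and Snhg4 (35950001 to 35960000) was 2.97-fold above input, that of Srsf7 and Gemin6 (80420001 to 80430000) 2.16-fold on 31, 44 and 19 HRS counts, and that of Rps20 (3860001 to 3870000) 1.98-fold, all below the strongest bin of their window.

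**Figure D3:**
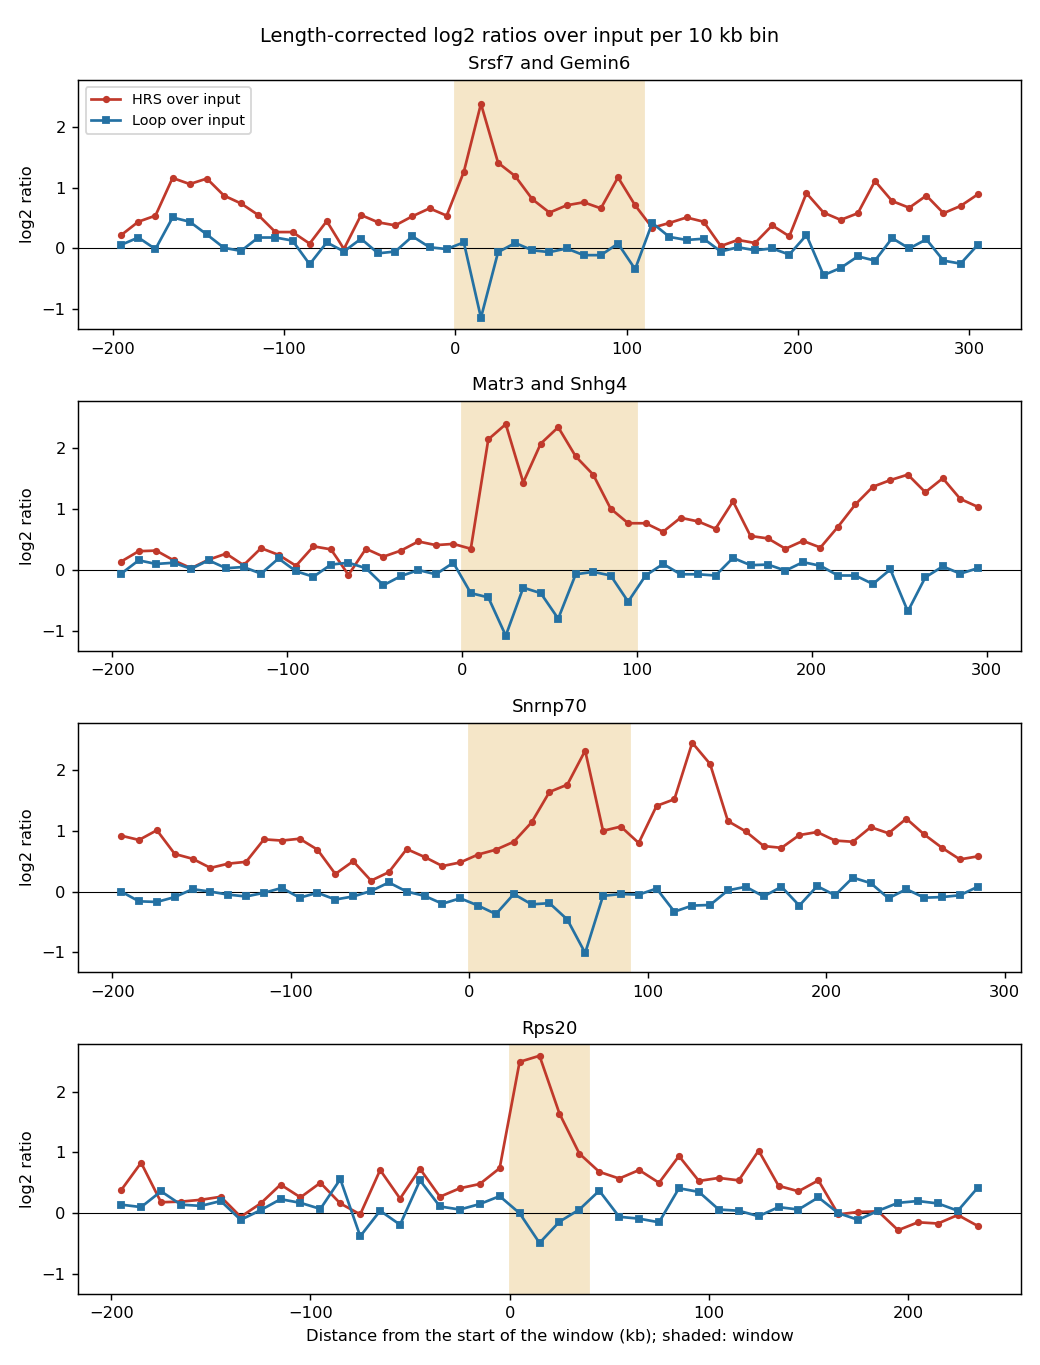
Log2 ratios over input per 10 kb bin after correction for fragment length, HRS in red and Loop in blue, by distance in kb from the start of each window (shaded) through its 200 kb flanks. HRS reaches its highest values inside the window in 3 panels and to the right of it in the Snrnp70 panel, and the lowest Loop values inside are -1.14 for Srsf7 and Gemin6, -1.08 for Matr3 and Snhg4, -1.01 for Snrnp70 and -0.49 for Rps20.

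Whether the windows were depleted from the released fraction was asked by comparing Loop with input. Loop libraries took part in the choice of windows, so these tests are not independent of it. In edgeR's quasi-likelihood test the Matr3 and Snhg4 window fell in Loop by 0.53 ± 0.11 (log2, SE) with an adjusted p of 0.000514, lower than every input in 3 of 3 libraries. The Rps20 window fell by 0.33 ± 0.11 with an adjusted p of 0.0182, also in 3 of 3 libraries. The Srsf7 and Gemin6 window gave -0.07 ± 0.10 (adjusted p of 0.608) and the Snrnp70 window 0.06 ± 0.11 (adjusted p of 0.665), neither past the threshold. Without Loop replicate 3 the 4 log2 ratios of Loop over input were -0.49, -0.27, -0.05 and 0.07 in that order.

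Fragment length moved with this comparison. Across the genome Loop held 2.16 times the input CPM on fragments up to 200 bp and 0.583 times on fragments over 1000 bp. When each count was set against the count expected from its fragment length, the Matr3 and Snhg4 window gave -0.21 ± 0.07 (adjusted p of 0.281) and the Rps20 window -0.09 ± 0.09 (adjusted p of 0.804), so neither call held. The corresponding values were -0.04 ± 0.07 (adjusted p of 0.9) for Srsf7 and Gemin6 and -0.14 ± 0.06 (adjusted p of 0.462) for Snrnp70.

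Of the 34 bins 14 were called lower in Loop than in input, beside 18.0% of all bins, and 3 were called higher, beside 21.5%. After length correction 2 bins remained lower, beside 0.0786% of all bins, and none was called higher, beside 0.269%. Those 2 are the strongest bins named above for Srsf7 and Gemin6 (80600001 to 80610000, log2 -1.14, adjusted p of 0.00226) and for Snrnp70 (52650001 to 52660000, log2 -1.01, adjusted p of 0.00155). In this paragraph each adjusted p is from edgeR's test, and each log2 value is a ratio of length-corrected group means. The strongest Matr3 and Snhg4 bin fell short of the threshold at -1.08 with an adjusted p of 0.0599, and that of Rps20 gave -0.49 with an adjusted p of 0.432. All these bins were picked for a high ratio of HRS over Loop in the same libraries, which favours low Loop counts. Their low Loop values are thus a description and no independent evidence of depletion.

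Over all 4 windows HRS was 2.44-fold above input on fragments up to 200 bp, 2.34-fold on those over 200 and up to 1000 bp, and 2.39-fold on those over 1000 bp, while all fragments of the genome gave 1.28-fold, 1.07-fold and 1.04-fold. By window, the Rps20 ratios were 4.42-fold, 3.33-fold and 3.34-fold, those of Matr3 and Snhg4 2.77-fold, 2.87-fold and 2.70-fold, those of Snrnp70 2.25-fold, 2.16-fold and 2.14-fold, and those of Srsf7 and Gemin6 2.40-fold, 1.79-fold and 2.21-fold. Against Loop the same windows gave 1.25-fold, 3.47-fold and 5.19-fold in the 3 length classes, and the genome 0.594-fold, 1.38-fold and 1.79-fold. The rise with length was thus seen in the genome as well, and came with the Loop counts. Corrected for length, HRS over Loop was 2.11-fold for Srsf7 and Gemin6, 3.35-fold for Matr3 and Snhg4, 2.37-fold for Snrnp70 and 3.84-fold for Rps20.

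**Figure D4:**
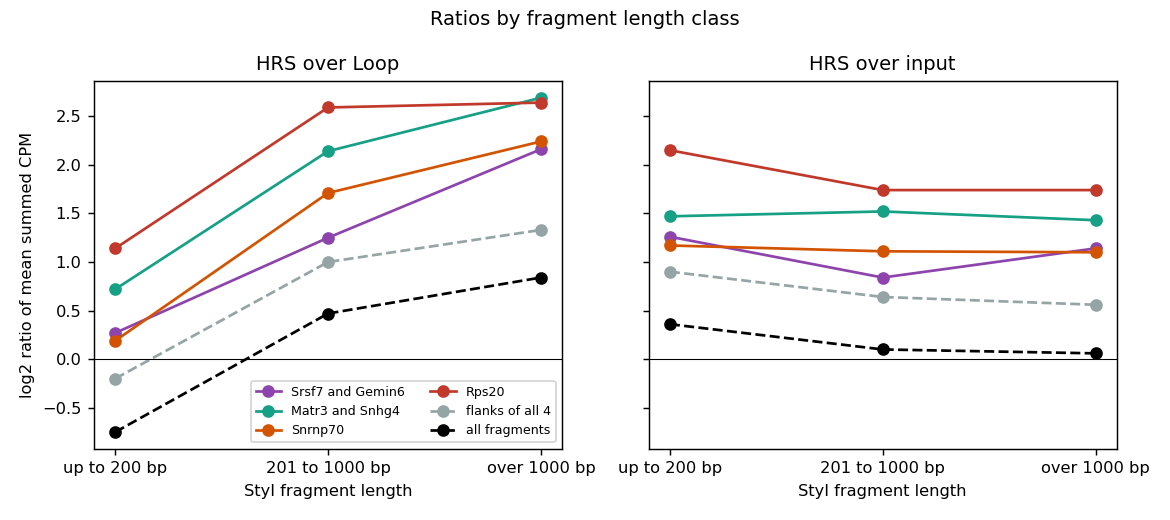
Log2 ratio of mean summed CPM in 3 classes of StyI fragment length (bp), HRS over Loop on the left and HRS over input on the right, for each window (solid), the flanks of all 4 and all fragments of the genome (dashed). HRS over Loop climbs with length in every series shown, while HRS over input shows no such climb (1.26, 0.84 and 1.14 for Srsf7 and Gemin6, 1.47, 1.52 and 1.43 for Matr3 and Snhg4, 1.17, 1.11 and 1.10 for Snrnp70, and 2.15, 1.74 and 1.74 for Rps20).

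Single fragments showed how widely the difference was spread. Of the 376 members 342 had at least 10 counts in the HRS and Loop libraries together, and on 251 of these (73.4%) all 3 HRS values lay above all 3 Loop values, beside 20.4% of all such fragments. This again is the contrast that chose the windows. By window the count was 68 of 108 for Srsf7 and Gemin6, 68 of 75 for Matr3 and Snhg4, 89 of 125 for Snrnp70 and 26 of 34 for Rps20. Of 341 members with at least 10 counts in HRS and input, all 3 HRS values lay above all 3 inputs on 231 (67.7%), beside 12.9% genome-wide. In the Matr3 and Snhg4 window no fragment had its 3 HRS values below its 3 Loop values, and the 5 members that did, 3 by Srsf7 and Gemin6 and 2 by Snrnp70, were all at most 200 bp long (11.8% of all fragments lay below Loop in this way).

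By length class, HRS lay above input without overlap on 47 of 61 short members (up to 200 bp, 21.2% genome-wide), 112 of 164 over 200 and up to 1000 bp (11.8%) and 72 of 116 over 1000 bp (9.36%). Loop lay below input on 136 of 342 members, beside 26.6% genome-wide. On members over 1000 bp it did so on 67 of 116, beside 39.4%, and on those over 200 and up to 1000 bp on 69 of 163, beside 29.7%. Among short members Loop lay above input on 39 of 63, beside 65.3%. The share of short members with Loop above input was thus near that of the genome.

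**Figure D5:**
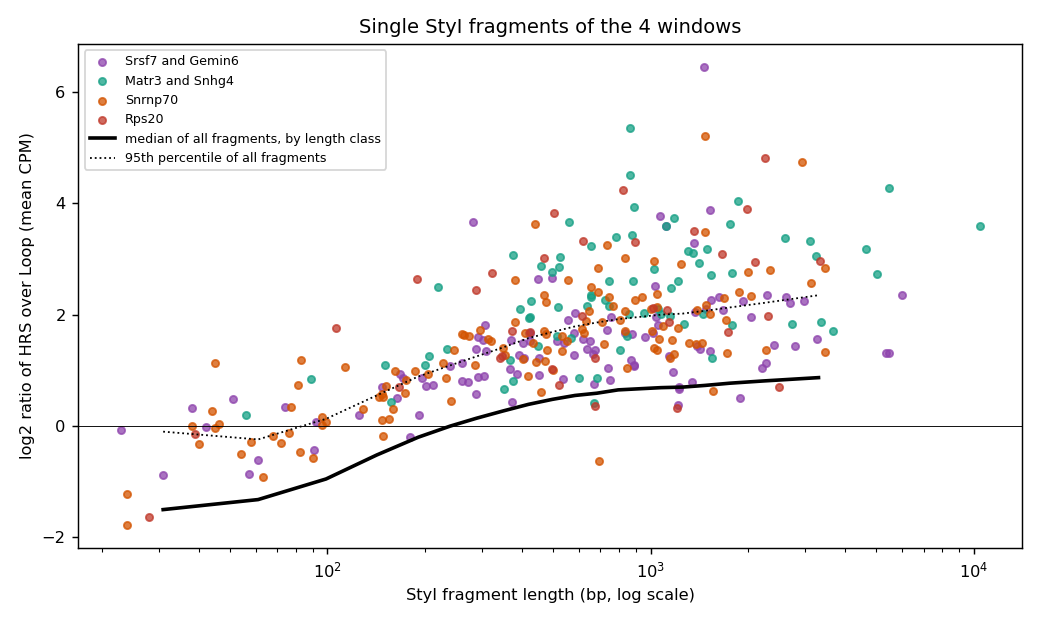
Each point is a StyI fragment of a window with at least 10 HRS and Loop counts, by its length (bp, log scale) and its log2 ratio of HRS over Loop, with the genome-wide median (solid line) and 95th percentile (dotted) by length class. Of the 342 points 318 lie above 0 and 119 exceed 4-fold, beside 63.2% and 3.21% of 2461453 fragments genome-wide. The windows were chosen by this contrast. The highest point is the 1459 bp fragment of the Srsf7 and Gemin6 window.

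The largest single ratio was on the 1459 bp fragment chr17:80605362-80606821 of the Srsf7 and Gemin6 window. It had 103, 125 and 188 counts in HRS, 5, 2 and 0 in Loop, and 21, 32 and 20 in input, an 87.7-fold excess over Loop and 8.33-fold over input. Its Loop counts are so few that the ratio over Loop is imprecise, while the ratio over input rests on at least 20 counts in each library. The fragment next to it, chr17:80606821-80607894, had 82, 55 and 120 HRS counts against 7, 13 and 7 in Loop. The other 2 members with the highest HRS level in this window were short ones, chr17:80615446-80615520 (74 bp) and chr17:80628631-80628799 (168 bp), with 3.38-fold and 2.80-fold over input. All 3 Loop values lay above all 3 inputs on the first of these, and Loop and input overlapped on the second.

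In the Snrnp70 window the highest HRS level was on the 1476 bp fragment chr7:52649771-52651247, with 154, 228 and 350 counts in HRS, 18, 7 and 4 in Loop and 45, 61 and 58 in input. It was 37.1-fold above Loop and 6.57-fold above input. The fragment that adjoins it, chr7:52651247-52654181, was 27.0-fold and 6.59-fold, so the strongest bin did not rest on 1 fragment. The next highest HRS levels were on chr7:52632803-52632916 (113 bp, 3.54-fold over input) and chr7:52626624-52627180 (556 bp, 4.08-fold).

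In the Matr3 and Snhg4 window the highest HRS level was on the 458 bp fragment chr18:35714702-35715160, with 225, 165 and 206 HRS counts, 31, 41 and 38 Loop counts and 59, 47 and 51 input counts. It was 7.34-fold above Loop and 5.35-fold above input. It was followed by chr18:35732199-35732288 (89 bp, 2.73-fold over input) and chr18:35733976-35734196 (220 bp, 4.43-fold). The largest ratio over Loop among members with at least 50 HRS and Loop counts was on chr18:35722023-35722887 (864 bp), with 114, 111 and 175 HRS counts against 6, 6 and 2 in Loop, 41.0-fold, a fragment singled out after its values were seen.

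In the Rps20 window 3 fragments made up 28.3% of the HRS level, more than in the other windows (11.6%, 12.4% and 8.12%), which hold more fragments. They were chr4:3762129-3762632 (503 bp), with 173, 157 and 162 HRS counts against 18, 18 and 11 in Loop, chr4:3759278-3760100 (822 bp), with 114, 113 and 178 against 19, 7 and 5, and chr4:3745839-3745945 (106 bp), with 97, 80 and 208 against 55, 63 and 49. Over input they stood at 4.44-fold, 6.09-fold and 8.99-fold. The first had like counts in the 3 HRS libraries, while the third had its highest count in HRS replicate 3. No fragment of this window had its 3 HRS values below its 3 Loop values.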

How the data were processed

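The authors deposited, per library, whole-number counts of tags per StyI fragment. Per the labels' protocols, an adaptor with an MmeI site was ligated to StyI ends and cut to tags of uniform length. The build, mm9, and the software CASAVA 1.8.2 are named per the submitters' processing notes. The aligner, how tags with several matches were treated and the counting base of coordinates (printed as in the files) were not given in the sources used here. Repeat tables were not used here.

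The members and lists were chosen with earlier results of these data known. Counts were summed into 10 kb bins by fragment midpoint and, as further entries, into windows and 200 kb flanks. HRS was compared with Loop and each with input by edgeR 4.0.16 (glmQLFit and glmQLFTest) in R 4.3.3, TMM factors, bins kept by filterByExpr at 10 counts, and a threshold of 0.05 on the p adjusted by Benjamini and Hochberg. Each fit held the 6 libraries compared. CPM and ratios of group means used TMM factors over all 9 libraries. The length correction set each count against the count expected from 20 classes of fragment length in that library. Ranks are by edgeR's log2 ratio over all tested bins. Fits were tested on simulated counts with known changes and the same dispersion in every bin. That checks the code and does not show how often calls err in these data. The open interval that ends each of the 21 chromosomes was left out. Same-numbered HRS and Loop libraries deviated together from their group means over bins (correlations 0.156, 0.107 and 0.231, all above 0.1). Pairs with unlike numbers ranged from -0.199 to 0.124, the highest being HRS replicate 2 with Loop replicate 1. The fits reported held no pairing term, and the block was run as an alternative. The text names, per window, the bin with the highest ratio of HRS over Loop, the bins at both edges, the 3 fragments with the highest HRS CPM and the flank bin with the highest ratio over input. Other bins and fragments named were singled out after their values were seen. Other alternatives were median-of-ratios scaling, library totals, DESeq2 1.42.0, no filter, a threshold of 0.01, a fit of all 9 libraries, flanks of 100 and 500 kb, fragments over 200 bp only, the fragment with most counts left out, and each library left out.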

Additional observations from a re-analysis of the deposited data

How the results depend on the processing

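The ratios of HRS over Loop and over input kept their direction in all 4 windows under every alternative run. In the Snrnp70 window the log2 ratio of Loop over input turned from 0.06 to -0.07 with library totals, -0.14 with length correction and -0.23 on fragments over 200 bp. In the Srsf7 and Gemin6 window it was -0.07, and became -0.20 with library totals and -0.14 without the fragment with most counts. Matr3 and Snhg4 went from -0.53 to -0.20 (length corrected) and -0.27 (over 200 bp), and Rps20 from -0.33 to -0.08 (length corrected). Relative to flanks, Loop over input moved to -0.09 and -0.11 for Srsf7 and Gemin6 and to -0.22 and -0.32 for Matr3 and Snhg4, with length correction and over 200 bp in that order. For Snrnp70 it moved to -0.30 over 200 bp, and for Rps20 to -0.21 length corrected. HRS over Loop relative to flanks moved from 1.45 to 1.78 (500 kb flanks) and 1.09 (length corrected) for Matr3 and Snhg4 and from 0.31 to 0.54 (over 200 bp) for Snrnp70, and HRS over input for Matr3 and Snhg4 from 0.80 to 1.02 (500 kb flanks).

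Leaving out each library gave HRS over Loop of 0.93 to 1.22, 1.77 to 2.14, 0.80 to 1.20 and 1.88 to 2.28 for the windows of Srsf7, Matr3, Snrnp70 and Rps20, the lowest each time without HRS replicate 3. Of the 34 bins, 32 to 34 were then called above Loop and 30 to 33 above input. Relative to flanks, HRS over input in the Snrnp70 window was 0.19, and 0.12 without that library and 0.07 with 100 kb flanks, while HRS over Loop was 0.31 and became 0.15 with 100 kb flanks. The replicate block, which pairs same-numbered libraries, called 50190 bins higher and 55941 lower in HRS than Loop, beside 43862 and 50037 without it, and all 34 bins of the windows under both. With the block and length correction 26658 were lower.

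Over all bins, an adjusted p of 0.01 left 28791 higher and 32776 lower in HRS than Loop, 8055 lower in HRS than input, and 34950 higher and 19962 lower in Loop than input. Length correction left 20725 lower in HRS than Loop, and 664 higher and 194 lower in Loop than input. Within the windows it left 0 higher and 2 lower, against 3 and 14, and the fit of all 9 libraries left 1 higher. Library totals gave 43152 lower in HRS than input, and 33818 higher and 68295 lower in Loop than input. Leaving out each library gave 23953 to 41813 higher and 9849 to 25562 lower in HRS than input, and 26090 to 44647 lower in Loop than input. The lowest of each of these 3 ranges came without the D21 input. Few Loop counts limit the ratio over Loop of single fragments.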
